A study of Homo sapiens with 8 samples.

Results

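The genes described are 50 that copy DNA or supply and guard that copying: the helicase, polymerase, clamp and primase genes of the replication fork, the genes that license origins, and genes of nucleotide supply, fork protection and chromatin assembly that are used in S phase. They were taken by name from a gene count table of 60708 genes, and all 50 were among the 16008 genes with enough counts to be tested. RNA sequencing was done on HS578T, an established human breast cancer line of mesenchymal appearance, in 4 groups of 2 libraries that the submitters call biological replicates. Every group was transfected with 25 µg of plasmid DNA, so no group is untransfected. The plasmid encoded green fluorescent protein (Mock) or exogenous HSF2, a heat shock transcription factor (HSF2oe). Then, 24 h later, the medium was changed for 24 h to DMEM with 2% of a supplement the labels leave unnamed, alone (control) or with 10 ng/ml of the cytokine TGF-β1 (TGF-β). The promoter of the plasmids and the share of cells that took them up are not given in the sources used here. The series title names proliferation and invasion as its subject, and the design asks what TGF-β does in each transfection and what HSF2 does with and without it.

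A cell copies its DNA once per division. In G1, the origin recognition complex, CDC6 and CDT1 load the ring-shaped MCM2-7 helicase on DNA. In S phase, CDC45 and the GINS complex join it to form the active CMG helicase, and polymerases held by the PCNA clamp copy the unwound strands, which the RPA complex covers. Many of these genes are transcribed together at the G1/S boundary by E2F factors, and in epithelial cells TGF-β is best known for arresting the cycle in G1.

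Promoter sequence is described first, because genes that move together may share short words near their start sites. RefSeq promoter windows of 300 bases (250 before to 50 after the start, build GRCh38.p14) matched 42 of the 50 genes. An E2F word (TTTCGCGC, TTTGGCGC, TTTCCCGC or TTTGCCGC, on either strand, overlaps allowed) stood in 19 of these 42 windows, or 45.2%. The share was 5.3% of the windows of all genes tested, 3.33% of all 27305 windows and 21.1% of those of 38 further replication genes. Median GC content was 65.8% in the 42 windows and 65% in those of the genes tested. The CCAAT box, a common proximal promoter element (CCAAT, either strand), stood in 54.8% of the 42 windows. Its share was 36.7% of windows of the genes tested and 50% of those of the 38 further replication genes. The CHR word of mitotic promoters (TTTGAA, either strand) stood in 2.38% of the 42, the only match being in RRM1. That word stood in 9.67% of windows of the genes tested and in 7.89% of those of the 38 further genes. The heat shock element, the word that heat shock factors bind, was searched as 3 alternating units and stood in 0 of 42 windows against 0.324% of the windows of the genes tested. With a word this rare, 42 windows are too few to show a difference. A word match is a description of letters in one window and not a binding site.

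The windows below belong to the 4 genes with an E2F word that had the smallest p for the response to TGF-β in Mock cells. They run 5′ to 3′ on the gene's strand, from 250 bases before the RefSeq start site to 15 bases after it, with E2F words in capitals. The count table's gene models of MCM3 and GINS2 begin further upstream than these RefSeq starts.
MCM3, chr6:52284728-52284992, minus strand: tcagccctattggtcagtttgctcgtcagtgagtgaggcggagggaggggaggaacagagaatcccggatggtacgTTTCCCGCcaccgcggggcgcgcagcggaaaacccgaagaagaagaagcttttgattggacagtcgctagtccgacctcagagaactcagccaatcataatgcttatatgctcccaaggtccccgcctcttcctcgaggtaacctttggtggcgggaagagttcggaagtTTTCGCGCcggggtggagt
MCM2, chr3:127598161-127598425, plus strand: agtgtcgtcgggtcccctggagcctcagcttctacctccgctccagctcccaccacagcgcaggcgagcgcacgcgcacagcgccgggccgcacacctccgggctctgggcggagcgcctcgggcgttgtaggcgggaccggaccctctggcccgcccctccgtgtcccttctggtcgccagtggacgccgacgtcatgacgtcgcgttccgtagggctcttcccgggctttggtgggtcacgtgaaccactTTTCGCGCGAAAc
GINS2, chr16:85688940-85689204, minus strand: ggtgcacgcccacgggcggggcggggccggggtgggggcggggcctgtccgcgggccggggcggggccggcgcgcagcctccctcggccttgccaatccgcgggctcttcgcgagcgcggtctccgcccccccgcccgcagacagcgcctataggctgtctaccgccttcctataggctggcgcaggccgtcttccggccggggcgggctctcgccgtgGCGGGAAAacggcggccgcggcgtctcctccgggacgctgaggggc
PCNA, chr20:5126608-5126872, minus strand: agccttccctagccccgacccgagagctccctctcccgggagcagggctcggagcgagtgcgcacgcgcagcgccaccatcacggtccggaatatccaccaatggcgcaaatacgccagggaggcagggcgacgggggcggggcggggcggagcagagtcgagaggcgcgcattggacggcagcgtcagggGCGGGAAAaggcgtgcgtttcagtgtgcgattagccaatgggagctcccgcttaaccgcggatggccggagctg
In MCM3, words begin at -174 and -4 from the start site. In MCM2, overlapping words on both strands begin at 3 and 7, past the start. GINS2 and PCNA carry the same word on the reverse strand, at -31 and -59.

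Library totals ran from 17427645 to 34336107 counts, and mitochondrial genes took 2.86 to 4.74% of them. HSF2 itself read 8.36 and 6.44 CPM (the usual unit of a gene's counts relative to its library's total, scaled with TMM, the trimmed mean of M-values) in the Mock control libraries and 5.40 and 5.76 CPM in Mock TGF-β. It read 937 and 616 CPM in HSF2oe control and 780 and 489 CPM in HSF2oe TGF-β, so each library matches its label for the plasmid, which says nothing of the TGF-β labels. Mesenchymal markers were high in every library (VIM 3181 to 4176 CPM, FN1 25204 to 54264 CPM, CDH2 463 to 1315 CPM). Of 10 luminal and epithelial markers, 4 stayed below 1 CPM in every library, PGR at 0. ESR1, EPCAM and KRT19 did not exceed 0.197, 0.128 and 0.193 CPM, while KRT18 ran from 177 to 275 CPM. The summed level of 8 blood and endothelial markers was 2.33 to 7.19 CPM, with CD3E and HBB among those at 0 in all libraries. The treatment field of the labels contradicts the titles and the design text: it reads DMSO in all 4 Mock libraries and TGF-β1 in all 4 HSF2oe libraries. The groups were taken from the titles.

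TGF-β in Mock cells. Nearly the whole set fell. Of the 50 genes, 47 were called lower with TGF-β and 0 higher (edgeR quasi-likelihood test, Benjamini-Hochberg adjusted p below 0.05 over all genes tested), against 6.50% of all genes tested called lower and 7.32% higher. The median log2 change was -0.81, the range -2.44 to -0.28, and the median of all genes tested was near 0. Both TGF-β libraries lay below both control libraries for 49 of the 50 genes, against 26.9% of all genes tested. The 50 genes together took 0.400 and 0.338% of all counts in the Mock control libraries and 0.190 and 0.155% in Mock TGF-β, so the fall is seen in the raw counts too. In these bulk libraries, fewer cells in S phase and less RNA per cell cannot be told apart. Replicate 2 was below replicate 1 for 45 of 50 genes in Mock control, 46 in Mock TGF-β, 19 in HSF2oe control and 33 in HSF2oe TGF-β, so in the Mock groups most of the 50 shared the direction of the replicate difference. Scaling by library totals alone gave a median of -1.07 and moved the median of all genes tested by -0.27. Calls over all genes tested were fewer without any one Mock library than with all libraries. Leaving out Mock TGF-β replicate 2 left 36 called lower, and 35 of the 47 calls lasted under every alternative run.

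**Figure D1:**
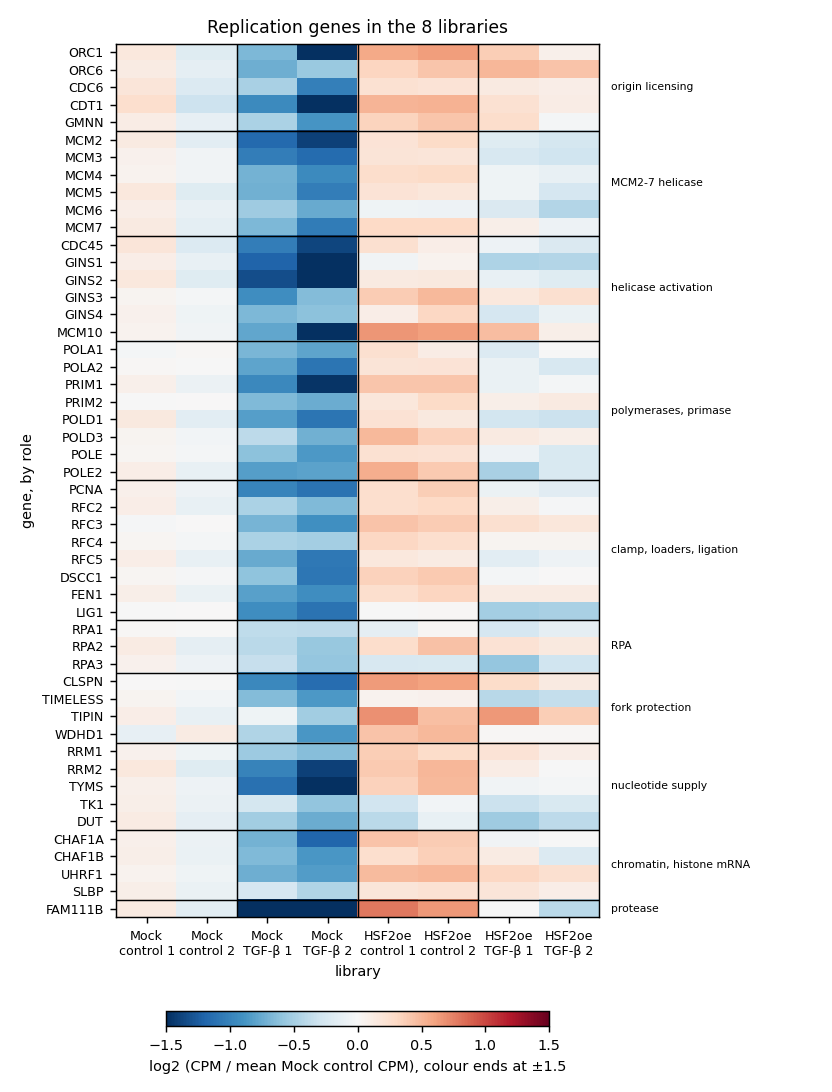
Heat map of log2 (CPM / mean Mock control CPM) for the 50 genes (rows, grouped by role) in the 8 libraries (columns), with colours ending at 1.5 in either direction. Both Mock TGF-β columns are blue for nearly every gene, and both HSF2oe control columns are mostly red.

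Origin licensing genes all fell with TGF-β in Mock cells (5 of 5, median log2 change -0.74). CDT1, which loads MCM2-7 on origins, read 69.7 and 47.0 CPM in Mock control and 30.0 and 17.7 with TGF-β, then 83.0 and 83.7 in HSF2oe control and 68.5 and 62.8 with TGF-β. Its Mock TGF-β libraries were the lowest of the 8 and did not overlap with any other group. The log2 change was -1.30 ± 0.21 (SE, 2 libraries per group here and throughout; adjusted p = 9.08e-04). ORC1, the largest origin recognition subunit, read 23.8 and 18.8 CPM in Mock control and 13.4 and 7.18 with TGF-β. It read 31.7 and 33.0 CPM in HSF2oe control and 27.5 and 22.4 with TGF-β. Again both Mock TGF-β libraries stood below the rest, though they differed from each other by more than the gap to the nearest control library. ORC1 fell by 1.07 ± 0.22 on the log2 scale (adjusted p = 0.00474, or 0.0504 without Mock TGF-β replicate 2). The loader CDC6 (-0.74 ± 0.16), the subunit ORC6 (-0.64 ± 0.14) and the CDT1 inhibitor GMNN (-0.67 ± 0.15) fell less. The calls of these 3 were lost without Mock control replicate 1, where the adjusted p was 0.0766 for CDC6, 0.0702 for ORC6 and 0.064 for GMNN. They were also lost for CDC6 (0.0891) and GMNN (0.104) without Mock TGF-β replicate 2, and for ORC6 (0.0501) without Mock TGF-β replicate 1. In HSF2oe cells none of the 5 was called. ORC6 read 19.0 and 20.2 CPM in control and 21.4 and 20.4 with TGF-β there, the only gene of the 50 with both TGF-β libraries above both controls (log2 change 0.09 ± 0.12, adjusted p = 0.772).

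All 6 subunits of the MCM2-7 ring fell in Mock cells, with a median log2 change of -0.86. MCM2 read 152 and 125 CPM in Mock control and 62.0 and 52.8 with TGF-β, against 160 and 170 in HSF2oe control and 123 and 116 with TGF-β. The groups did not overlap, Mock TGF-β being lowest, then HSF2oe TGF-β, then Mock control, and HSF2oe control highest. The changes with TGF-β were -1.27 ± 0.12 in Mock cells (adjusted p = 1.69e-05) and -0.46 ± 0.11 in HSF2oe cells (adjusted p = 0.0234). MCM3 showed the same order: 139 and 128 CPM fell to 64.7 and 59.8 in Mock cells, and 152 and 151 to 113 and 108 in HSF2oe cells. Its changes were -1.10 ± 0.10 (adjusted p = 9.95e-06) and -0.45 ± 0.09 (adjusted p = 0.00864). MCM4 (-0.83 ± 0.10), MCM5 (-0.87 ± 0.13), MCM6 (-0.64 ± 0.12) and MCM7 (-0.85 ± 0.13) fell in Mock cells. MCM4 was also called in HSF2oe cells (-0.37 ± 0.10). Per kb of exon, MCM7 stood above the other 5 subunits in every group, with 77.6 CPM per kb in Mock control against 18.3 for MCM6 and 29.4 to 36.5 for the rest. MCM2 shares 23.6% of its exonic bases with other genes, mainly an antisense one. The counting did not use strand, so reads there may be mixed or lost.

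**Figure D2:**
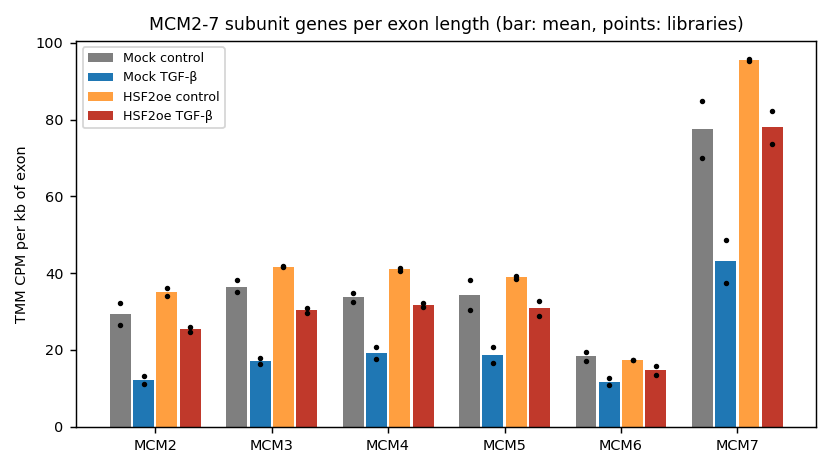
Levels of the 6 MCM2-7 genes in TMM-scaled CPM per kb of exon (bars: mean of 2 libraries, points: libraries, colours: groups). For each subunit the Mock TGF-β bar is the lowest of the 4, for example 12.2 for MCM2 and 43.2 for MCM7.

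The genes that turn the loaded ring into the CMG helicase all fell in Mock cells, 6 of 6 with a median log2 change of -1.17, the lowest median of the role groups with more than 1 gene. GINS2, a GINS subunit, read 39.1 and 30.8 CPM in Mock control and 13.9 and 11.1 with TGF-β, then 38.3 and 38.5 in HSF2oe control and 32.2 and 30.7 with TGF-β. The Mock TGF-β libraries stood apart, and the other 3 groups lay close together. The change was -1.49 ± 0.14 in Mock cells (adjusted p = 1.81e-05) and -0.29 ± 0.13 in HSF2oe cells, which did not pass (adjusted p = 0.227). GINS1, another subunit, read 32.9 and 28.5 CPM in Mock control and 13.4 and 10.6 with TGF-β, and 29.5 and 31.9 in HSF2oe control and 22.2 and 22.7 with TGF-β. Both controls were at one level, and TGF-β libraries were below them in either transfection. It fell by 1.36 ± 0.13 in Mock cells (adjusted p = 2.22e-05) and by 0.45 ± 0.12 in HSF2oe cells (adjusted p = 0.0380). CDC45 (-1.20 ± 0.15), the origin firing factor MCM10 (-1.13 ± 0.19), GINS3 (-0.77 ± 0.15) and GINS4 (-0.64 ± 0.11) fell in Mock cells as well. GINS4, with 23.4% of its exonic bases shared with other genes, was also called in HSF2oe cells (-0.38 ± 0.11).

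Of the 8 polymerase and primase genes, 7 fell in Mock cells (median log2 change -0.77). POLD1, the catalytic subunit of polymerase delta, read 65.6 and 53.4 CPM in Mock control and 33.5 and 27.9 with TGF-β, and 69.3 and 65.8 in HSF2oe control and 49.1 and 47.4 with TGF-β. The TGF-β libraries lay below the controls in both transfections, lowest in Mock cells. Its changes were -0.96 ± 0.12 in Mock cells (adjusted p = 1.60e-04) and -0.48 ± 0.12 in HSF2oe cells (adjusted p = 0.0199). POLE, the catalytic subunit of polymerase epsilon, read 73.3 and 70.4 CPM in Mock control and 46.8 and 39.6 with TGF-β, and 83.9 and 83.3 in HSF2oe control and 67.9 and 61.1 with TGF-β. Its 4 groups did not overlap. The changes were -0.74 ± 0.11 (adjusted p = 4.24e-04) and -0.37 ± 0.10 (adjusted p = 0.0410). The polymerase alpha genes POLA1 (-0.74 ± 0.11) and POLA2 (-0.95 ± 0.14), the primase genes PRIM1 (-1.21 ± 0.19) and PRIM2 (-0.70 ± 0.11) and the delta subunit gene POLD3 (-0.56 ± 0.13) fell in Mock cells. POLD3 lost its call without Mock control replicate 1 (adjusted p = 0.0704) and without Mock TGF-β replicate 2 (0.151). Exonic sharing reached 39.4% for POLA2 and 22.2% for PRIM1.

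POLE2, the accessory subunit of polymerase epsilon, was the exception among the polymerases. It had the lowest level of the 50 genes per kb (1.02 CPM per kb in Mock control) and between 26 and 136 counts per library. It read 3.22 and 2.78 CPM in Mock control and 1.69 and 1.72 with TGF-β, then 4.37 and 3.94 in HSF2oe control and 2.15 and 2.56 with TGF-β. TGF-β libraries were below the controls in both transfections and by a like amount. The change of -0.81 ± 0.26 in Mock cells did not pass (adjusted p = 0.0528), and that of -0.83 ± 0.23 in HSF2oe cells did (adjusted p = 0.0394). The latter call was lost without any one of 6 libraries (all but those of Mock TGF-β), with adjusted p from 0.0511 to 0.23, and with DESeq2 (0.0719).

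All 8 genes of the clamp, its loaders and Okazaki fragment maturation fell in Mock cells (median log2 change -0.85). PCNA, the sliding clamp, read 96.6 and 87.0 CPM in Mock control and 46.1 and 42.6 with TGF-β, and 109 and 119 in HSF2oe control and 86.4 and 81.9 with TGF-β. Every TGF-β library was below every control library, and the Mock TGF-β libraries were the lowest. PCNA fell by 1.05 ± 0.10 in Mock cells (adjusted p = 2.22e-05) and by 0.44 ± 0.10 in HSF2oe cells (adjusted p = 0.0136). LIG1, the ligase that joins Okazaki fragments, read 44.5 and 44.8 CPM in Mock control and 44.5 and 45.1 in HSF2oe control, so the controls of both transfections overlapped. With TGF-β it read 23.4 and 20.8 CPM in Mock cells and 31.4 and 31.8 in HSF2oe cells. LIG1 fell by 1.02 ± 0.10 (adjusted p = 2.43e-05) and by 0.50 ± 0.10 (adjusted p = 0.00504). The flap nuclease FEN1 (-0.87 ± 0.10) and the loader genes RFC2 (-0.57 ± 0.11), RFC3 (-0.81 ± 0.12), RFC4 (-0.49 ± 0.10), RFC5 (-0.91 ± 0.14) and DSCC1 (-0.84 ± 0.14) fell in Mock cells, and none of these 6 was called in HSF2oe cells. The call of RFC2 was lost without Mock TGF-β replicate 2 (adjusted p = 0.054).

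The genes of the RPA complex, which coats single-stranded DNA in replication and repair alike, showed some of the smallest falls (3 of 3, median log2 change -0.46). RPA1, the largest subunit, read 180 and 177 CPM in Mock control and 137 and 136 with TGF-β, then 162 and 182 in HSF2oe control and 149 and 162 with TGF-β. Only the Mock TGF-β libraries stood apart from the rest. The change was -0.39 ± 0.10 in Mock cells (adjusted p = 0.0164) and -0.15 ± 0.10 in HSF2oe cells (adjusted p = 0.434). RPA2 read 42.6 and 35.8 CPM in Mock control and 29.7 and 26.5 with TGF-β, and 47.1 and 53.0 in HSF2oe control and 45.6 and 43.5 with TGF-β. Both HSF2oe groups thus lay above both Mock groups. RPA2 changed by -0.48 ± 0.12 in Mock cells (adjusted p = 0.0137), and RPA3 by -0.46 ± 0.14 (adjusted p = 0.0458). Both Mock TGF-β libraries lay below both Mock control libraries for all 3 RPA genes. None of the 3 calls lasted when single libraries were left out. RPA1 lost its call without any one of the 4 Mock libraries (adjusted p 0.0599 to 0.108), and RPA2 without Mock control replicate 1 (0.146) or Mock TGF-β replicate 2 (0.141). RPA3 lost it without any one of the Mock or HSF2oe control libraries (0.0528 to 0.304), with only the 4 Mock libraries fitted (0.0598) and with DESeq2 (0.0654).

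Of the 4 genes that guard the moving fork, 3 fell in Mock cells (median log2 change -0.71). CLSPN, which passes the checkpoint signal from stalled forks, read 40.8 and 40.6 CPM in Mock control and 20.9 and 18.5 with TGF-β, then 63.3 and 61.9 in HSF2oe control and 49.3 and 44.6 with TGF-β. Its 4 groups did not overlap, and both HSF2oe groups lay above Mock control. CLSPN fell by 1.05 ± 0.11 (adjusted p = 2.69e-05) in Mock cells and by 0.41 ± 0.10 (adjusted p = 0.0182) in HSF2oe cells. TIMELESS read 76.3 and 72.2 CPM in Mock control and 47.2 and 40.8 with TGF-β, and 76.8 and 77.5 in HSF2oe control and 55.8 and 57.8 with TGF-β. Both controls were close, and it fell by 0.76 ± 0.10 (adjusted p = 2.23e-04) and by 0.44 ± 0.10 (adjusted p = 0.0125). TIPIN, the partner of TIMELESS in one complex, was not called. It read 7.72 and 6.70 CPM in Mock control and 6.90 and 5.02 with TGF-β, which overlap, and 11.6 and 9.83 in HSF2oe control and 11.3 and 9.29 with TGF-β. Its change in Mock cells was -0.28 ± 0.19 (adjusted p = 0.408), and 21.1% of its exonic bases are shared with other genes. WDHD1, which ties polymerase alpha to the helicase, fell by 0.66 ± 0.14 in Mock cells, a call lost without Mock control replicate 2 (adjusted p = 0.0554) or Mock TGF-β replicate 2 (0.0911).

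All 5 genes of nucleotide supply fell in Mock cells (median log2 change -0.63), over a wide range. TYMS, thymidylate synthase, read 58.3 and 52.7 CPM in Mock control and 25.5 and 18.2 with TGF-β, then 70.4 and 77.8 in HSF2oe control and 53.4 and 54.4 with TGF-β. The HSF2oe TGF-β libraries lay at the Mock control level. TYMS fell by 1.35 ± 0.14 in Mock cells (adjusted p = 3.04e-05) and by 0.46 ± 0.13 in HSF2oe cells (adjusted p = 0.0430). Of its exonic bases, 47.5% are shared with ENOSF1 on the other strand, so reads of both genes may be mixed or lost. RRM2, the S-phase subunit of ribonucleotide reductase, had the most counts of the 50. It read 424 and 337 CPM in Mock control and 191 and 144 with TGF-β, then 500 and 539 in HSF2oe control and 411 and 380 with TGF-β. Only the Mock TGF-β and HSF2oe control libraries stood apart. RRM2 changed by -1.18 ± 0.14 in Mock cells (adjusted p = 1.03e-04) and by -0.39 ± 0.14 in HSF2oe cells (adjusted p = 0.114). Its partner RRM1 (-0.60 ± 0.10), the dUTPase gene DUT (-0.63 ± 0.13) and thymidine kinase TK1 (-0.42 ± 0.13) fell in Mock cells. The calls of TK1 (adjusted p = 0.254) and DUT (0.067) were lost without Mock control replicate 1, and again without Mock TGF-β replicate 2 (0.341 and 0.082). TK1 had the highest level per kb of the 50 in Mock control, 86.7 CPM per kb.

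Among chromatin genes, 3 of 4 fell in Mock cells (median log2 change -0.77). UHRF1, which recruits the maintenance DNA methyltransferase to new DNA, read 76.7 and 70.6 CPM in Mock control and 44.5 and 41.4 with TGF-β, then 102 and 104 in HSF2oe control and 91.7 and 86.8 with TGF-β. Both HSF2oe groups were above both Mock groups. The change was -0.78 ± 0.10 in Mock cells (adjusted p = 1.40e-04) and -0.20 ± 0.09 in HSF2oe cells (adjusted p = 0.245). CHAF1A, the large subunit of the histone chaperone CAF-1, read 69.7 and 62.3 CPM in Mock control and 40.4 and 28.9 with TGF-β, and 88.7 and 85.9 in HSF2oe control and 63.8 and 65.9 with TGF-β. HSF2oe TGF-β lay within the range of Mock control. CHAF1A changed by -0.93 ± 0.13 (adjusted p = 3.93e-04) in Mock cells and by -0.43 ± 0.13 in HSF2oe cells (adjusted p = 0.0587). CHAF1B, another CAF-1 subunit, fell by 0.76 ± 0.13 in Mock cells. SLBP, which binds the stem-loop of histone mRNA, read 38.6 and 33.8 CPM in Mock control and 30.4 and 26.4 with TGF-β, and 41.2 and 42.2 in HSF2oe control and 41.0 and 38.8 with TGF-β. The Mock groups did not overlap, but the change of -0.35 ± 0.11 did not pass (adjusted p = 0.0504).

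FAM111B, a trypsin-like protease gene, changed most. It read 14.2 and 11.6 CPM in Mock control and 2.47 and 2.26 with TGF-β, then 22.3 and 20.3 in HSF2oe control and 12.8 and 9.76 with TGF-β. The Mock TGF-β libraries were far below all others, and HSF2oe TGF-β overlapped with Mock control. FAM111B changed by -2.44 ± 0.20 in Mock cells (adjusted p = 4.99e-06), to 0.184 of its control level. In HSF2oe cells it fell by 0.91 ± 0.15 (adjusted p = 0.00217), to 0.532 of its control level.

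**Figure D3:**
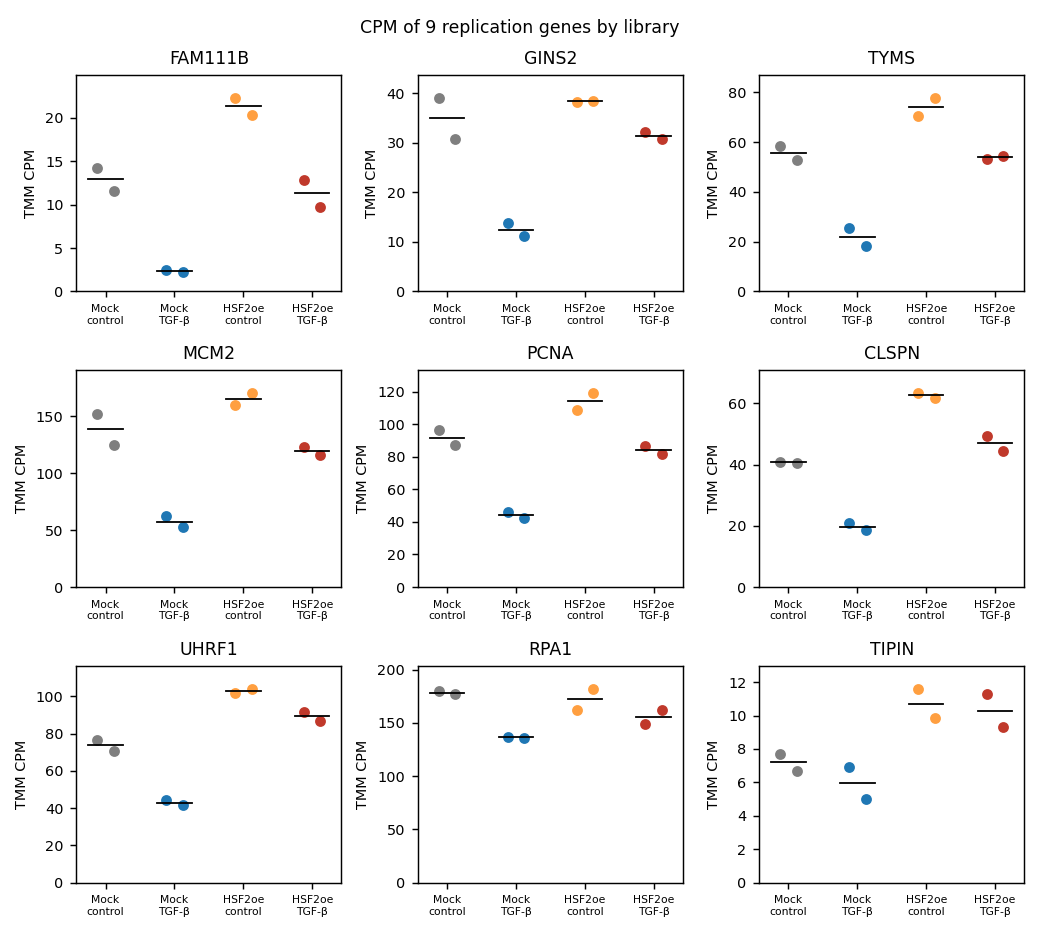
TMM-scaled CPM of 9 of the genes in each library (points) with the mean of each group (lines), axes from 0. In the panels of FAM111B, GINS2, TYMS, MCM2, PCNA, CLSPN, UHRF1 and RPA1 both Mock TGF-β points are the lowest, while those of TIPIN overlap with Mock control.

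TGF-β in HSF2oe cells. The same treatment gave fewer calls in HSF2oe cells. Of the 50 genes, 14 were called lower and 0 higher, against 3.82% of all genes tested called lower and 4.45% higher. They were MCM2, MCM3, MCM4, GINS1, GINS4, POLD1, POLE, POLE2, PCNA, LIG1, CLSPN, TIMELESS, TYMS and FAM111B. The median log2 change over the 50 was -0.33, the range -0.91 to 0.09, and 49 of 50 changes were below 0. For 46 of the 50 both TGF-β libraries lay below both controls, against 25.7% of all genes tested. The 50 genes took 0.463 and 0.475% of counts in HSF2oe control and 0.340 and 0.334% with TGF-β. Only the calls of LIG1 and FAM111B lasted under every alternative. The count fell to 9 without Mock control replicate 2, to 3 without either HSF2oe control library, to 5 without HSF2oe TGF-β replicate 1 and to 2 without HSF2oe TGF-β replicate 2. Without HSF2oe TGF-β replicate 2 the other 12 calls were all lost (adjusted p 0.064 to 0.289). Lost calls numbered 11 without HSF2oe control replicate 1 (0.0552 to 0.218), 11 without HSF2oe control replicate 2 (0.0618 to 0.308) and 9 without HSF2oe TGF-β replicate 1 (0.0671 to 0.274). GINS4, POLE, POLE2 and MCM4 were also lost without Mock control replicate 1 (0.0511 to 0.0568), these and TYMS without Mock control replicate 2 (0.0517 to 0.0612), and GINS4 without either Mock TGF-β library (0.0529 and 0.0535). Calls over all genes tested also became fewer without any one HSF2oe library or Mock control library. With libraries scaled by their totals alone, 32 of the 50 were called lower, a scaling that moved the median of all genes tested by -0.17. Over all genes tested, 2045 were then called, 452 of them higher, against 1323 and 712 with TMM.

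Of the 14 genes, 13 were also called in Mock cells, POLE2 being the other. The change lay nearer to 0 in HSF2oe than in Mock cells for 49 of the 50, all but POLE2. Across the 50 genes the changes of both transfections, which share no library, had a Pearson r of 0.69 and a Spearman rho of 0.70. The genes are not independent replicates, and both sets of changes share one scaling and one estimate of spread. Between the Mock change and the level per kb in Mock control, Spearman's rho was -0.02 over the 50 genes. Its median was -0.95 in the 19 genes with an E2F word in the promoter window and -0.70 in the 23 with a window and no such word, as a description.

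**Figure D4:**
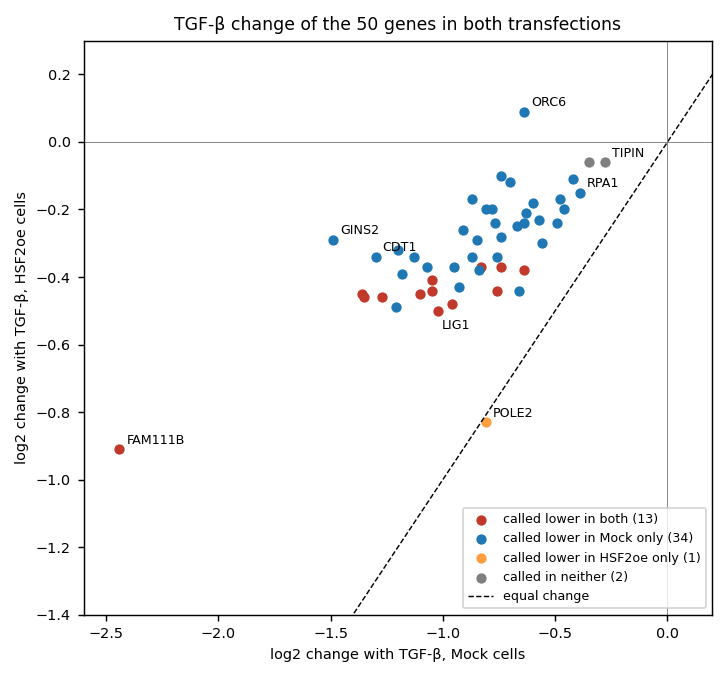
Log2 change with TGF-β in Mock cells (x axis) and HSF2oe cells (y axis), one point per gene, coloured by call, with a dashed line of equal change. Every point lies above the line except POLE2, and FAM111B is farthest from the rest in Mock cells.

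Difference of the TGF-β effects. Whether the effect of TGF-β differed between the transfections was tested as an interaction. No gene of the 50 passed (lowest adjusted p = 0.165), and neither did any gene tested (0% called in either direction). At an unadjusted p below 0.05, 38 of the 50 had a less negative effect in HSF2oe cells, against 2.95% of all genes tested. The median difference (HSF2oe minus Mock) was 0.52 on the log2 scale, above 0 for 49 genes. DESeq2 called 7 of the 50, against 23 genes in all, and limma-trend on the deposited log2 CPM called 0 of all genes. Without the filter on low counts, edgeR called 14 of the 50, against 83 genes in all. DESeq2 called MCM2, MCM3, GINS1, GINS2, FEN1, TYMS and FAM111B, all 7 of which were also among the 14.

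The smallest p belonged to GINS2, FAM111B and GINS1. GINS2 differed by 1.20, with an unadjusted 95% interval of 0.79 to 1.61 (adjusted p = 0.165, DESeq2 0.000821). FAM111B differed by 1.53 (0.98 to 2.08, adjusted p = 0.165, DESeq2 0.00189), and GINS1 by 0.91 (0.52 to 1.30, adjusted p = 0.268, DESeq2 0.0275). These intervals lie above 0 but are those of genes picked for small p among the 50. CDT1 (0.34 to 1.57), CDC45 (0.45 to 1.32), MCM2 (0.45 to 1.16), RRM2 (0.37 to 1.22) and TYMS (0.49 to 1.30) also had intervals above 0. So did FEN1 (0.40 to 1.00) and MCM3 (0.36 to 0.94). Their lower ends lay below those of GINS2, FAM111B and GINS1, and none of them passed (adjusted p 0.268 to 0.664). For RPA1 the interval was -0.06 to 0.53, for TIPIN -0.33 to 0.79 and for WDHD1 -0.19 to 0.63. POLE2 was the only gene below 0, with -0.02 and an interval of -0.78 to 0.74, which leaves room for a difference in either direction.

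**Figure D5:**
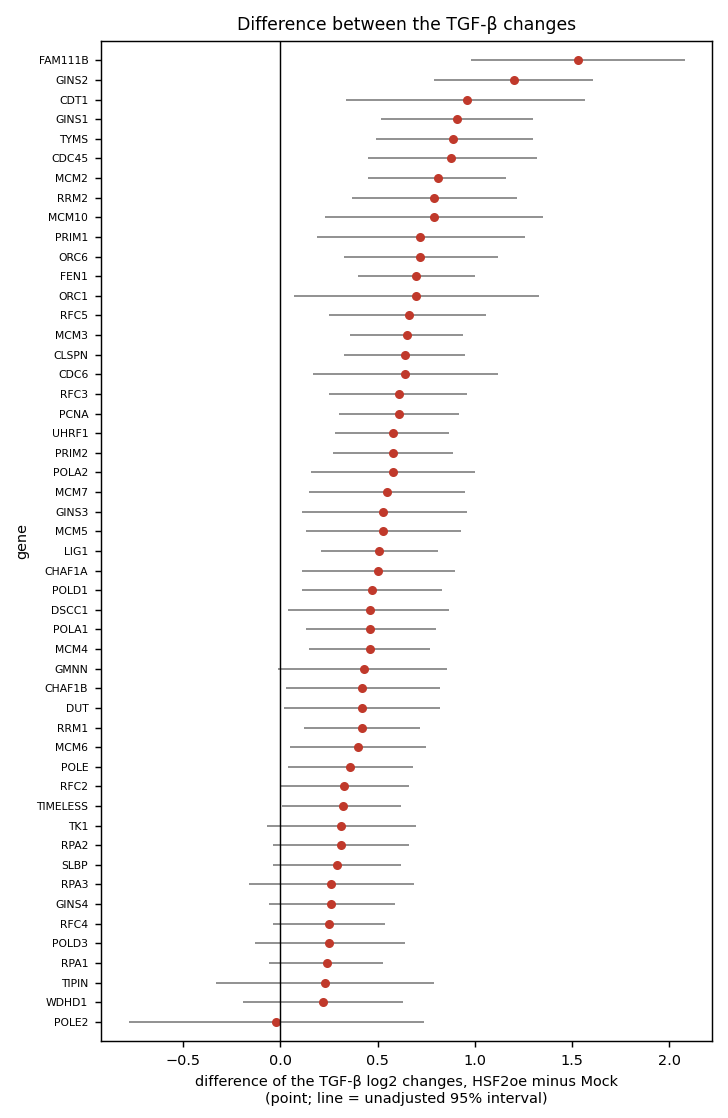
Difference of the log2 changes with TGF-β (HSF2oe minus Mock) for each of the 50 genes (points) with the unadjusted 95% interval (lines), sorted by size. The points run from -0.02 for POLE2 to 1.53 for FAM111B, and none passed after adjustment over all genes tested.

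HSF2oe against Mock cells. In assay medium alone, 10 of the 50 genes were called higher with HSF2oe and 0 lower, against 4.88% of all genes tested called higher and 7.22% lower. They were GINS3, MCM10, POLD3, RFC3, CLSPN, WDHD1, RRM1, TYMS, UHRF1 and FAM111B. The median log2 change was 0.29 (range -0.25 to 0.73), and for 41 of 50 both HSF2oe libraries lay above both Mock libraries, against 28.5% of all genes tested. The smallest p were those of CLSPN (0.62 ± 0.10, adjusted p = 0.00202) and UHRF1 (0.48 ± 0.09, adjusted p = 0.00623), and FAM111B had the largest rise (0.73 ± 0.15, adjusted p = 0.00863). Levels of LIG1, GINS1, RPA1 and MCM6 overlapped between the transfections, with changes of 0.00, 0.00, -0.05 and -0.07. DUT (-0.25 ± 0.13) and RPA3 (-0.23 ± 0.13) had the lowest changes and did not pass. Calls over all genes tested became fewer without any one control library of either transfection. Only the CLSPN call lasted under every alternative. Without Mock control replicate 2 or HSF2oe control replicate 1, 1 call was left, and 3 of the 10 without HSF2oe control replicate 2. Without Mock control replicate 1, 6 were called, 3 of the 10 beside CDT1, RPA2 and RRM2. The 7 calls other than those of CLSPN, UHRF1 and FAM111B were lost without each of these 4 libraries (adjusted p 0.0633 to 0.305). GINS3, RRM1 and TYMS were also lost without either HSF2oe TGF-β library (0.0517 to 0.0555), and RRM1 without either Mock TGF-β library (0.0591 and 0.0593). The UHRF1 call was lost without Mock control replicate 2 (adjusted p = 0.0875) or HSF2oe control replicate 1 (0.053), as was that of FAM111B (0.111 and 0.0919).

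Under TGF-β more of the 50 genes were called between the transfections, in a comparison that shares the Mock TGF-β libraries with the first one above. Whether the gap widened is the interaction, which none of the 50 passed in the main edgeR fit. Of the 50 genes, 44 were called higher in HSF2oe TGF-β than in Mock TGF-β and 0 lower, against 9.60% of all genes tested called higher and 11.9% lower. The median log2 change was 0.80 (range 0.03 to 2.26). For 47 of 50 both HSF2oe libraries lay above both Mock libraries, against 29.7% of all genes tested. CLSPN was 2.39-fold higher (1.26 ± 0.11, adjusted p = 2.19e-05) and FAM111B 4.81-fold (2.26 ± 0.20, adjusted p = 3.10e-05). CDT1 (1.48 ± 0.21), MCM10 (1.43 ± 0.19), GINS2 (1.34 ± 0.14), TYMS (1.31 ± 0.14) and ORC1 (1.30 ± 0.22) lay between them. SLBP and TIPIN, not called for TGF-β in Mock cells, were called here (0.49 ± 0.11, adjusted p = 0.00682, and 0.80 ± 0.19, adjusted p = 0.00973). Both calls were lost without Mock TGF-β replicate 2 (0.0908 and 0.121), and that of TIPIN also without HSF2oe TGF-β replicate 1 (0.0797). The 6 not called were MCM6 (0.33 ± 0.12, adjusted p = 0.0620), POLE2 (0.45 ± 0.26, adjusted p = 0.249), RPA1 (0.19 ± 0.10), RPA3 (0.03 ± 0.14), TK1 (0.15 ± 0.13) and DUT (0.17 ± 0.13). Of the 44 calls, 38 lasted under every alternative. LIG1 (0.0512), WDHD1 (0.0672) and TIMELESS (0.2) were lost without Mock TGF-β replicate 2, TIMELESS also without HSF2oe TGF-β replicate 1 (0.0612) or 2 (0.0794), and GINS4 without HSF2oe TGF-β replicate 2 (0.056).

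Set side by side, the 4 groups had a common order. Both Mock TGF-β libraries were the lowest of the 8 for 46 of the 50 genes, against 12.1% of all genes tested. The exceptions were RPA3, TIPIN, TK1 and DUT. Both HSF2oe control libraries were the highest of the 8 for 39 of the 50, against 8.16% of all genes tested. The middle of the order was not shared. HSF2oe TGF-β lay wholly above Mock control for 14 genes, among them CLSPN, UHRF1, FEN1, RRM1, MCM10 and ORC6. It lay wholly below Mock control for 17, among them MCM2, MCM3, MCM4, PCNA, LIG1, POLD1 and TIMELESS. It overlapped with Mock control for the other 19, CDT1, TYMS, RRM2, GINS2 and FAM111B among them. The matching shares of all genes tested were not counted for this pair of groups. In the 4 comparisons above, 25.7 to 29.7% of all genes tested lay without overlap in the direction given. The counts of 14 and 17 therefore describe these genes and cannot show that their split differs from that of other genes.

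Further genes of the pathway came from a list of 45 other replication genes. In Mock cells 24 of them fell with TGF-β and 1 rose, against 6.50% and 7.32% of all genes tested. The median log2 change was -0.44. The smallest p among those that fell belonged to FAM111A, the paralog of FAM111B (-1.06 ± 0.12), the chromatin remodeler HELLS (-1.36 ± 0.17) and the histone chaperone ASF1B (-1.13 ± 0.15). The 1 that rose was POLD4, the smallest subunit of polymerase delta (0.68 ± 0.14, adjusted p = 0.00510), while POLD1 and POLD3 fell. In HSF2oe cells 4 fell and 0 rose (median -0.21), against 3.82% and 4.45% of all genes tested. FAM111A (-0.51 ± 0.11), TICRR (-0.45 ± 0.11) and DNMT1 (-0.41 ± 0.10) were among the 4. With HSF2oe alone 6 were higher and 1 lower, against 4.88% and 7.22% of all genes tested. DTL, which targets CDT1 for degradation, was higher by 0.73 ± 0.15 and FAM111A by 0.46 ± 0.11, and POLD4 was the 1 lower (-0.58 ± 0.14). Under TGF-β 28 were higher with HSF2oe and 1 lower, against 9.60% and 11.9% of all genes tested. DTL was 2.89-fold and HELLS 2.84-fold higher, and POLD4, the 1 lower, was at 0.543 of its Mock level. In these 3 comparisons POLD4 was called opposite to most of the called genes of the list. POLD4 shares 21.3% of its exonic bases with other genes. It read 16.2 and 17.4 CPM in Mock control and 23.6 and 29.8 with TGF-β, then 10.1 and 12.3 in HSF2oe control and 14.2 and 15.0 with TGF-β. The call of POLD4 was lost in Mock cells without Mock control replicate 1 (adjusted p = 0.0527) or Mock TGF-β replicate 2 (0.0901), and with HSF2oe alone without Mock control replicate 2 (0.139) or HSF2oe control replicate 1 (0.204). The calls of FAM111A, TICRR and DNMT1 in HSF2oe cells were lost without HSF2oe control replicate 1 (0.073 to 0.123), HSF2oe control replicate 2 (0.0565 to 0.136) or HSF2oe TGF-β replicate 2 (0.0695 to 0.121), and those of TICRR (0.165) and DNMT1 (0.0662) without HSF2oe TGF-β replicate 1. With HSF2oe alone, DTL was lost without Mock control replicate 2 (0.0955) or HSF2oe control replicate 1 (0.0629), and FAM111A without any one of the 4 control libraries (0.065 to 0.124). No gene of the 45 passed the interaction with edgeR (16 at an unadjusted p below 0.05, against 977 of all 16008 genes tested).

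A second list held 23 other nucleotide synthesis genes, which act outside S phase too. In Mock cells 5 of the 23 fell and 2 rose with TGF-β (median log2 change -0.19), against 6.50% and 7.32% of all genes tested, so the count that rose is near that share. The 2 that rose were CTPS1, a CTP synthase (0.51 ± 0.11), and MTHFD2, a mitochondrial folate enzyme (0.49 ± 0.13), while SHMT1, a cytosolic folate enzyme, fell by 0.59 ± 0.10. In HSF2oe cells the same 2 genes rose, CTPS1 by 0.37 ± 0.10 and MTHFD2 by 0.53 ± 0.13, and 0 fell, against 4.45% of all genes tested that rose. With HSF2oe in assay medium alone, 1 of the 23 was higher and 2 were lower (median 0.04), against 4.88% and 7.22% of all genes tested. With TGF-β, 4 were higher and 1 was lower (median 0.17), against 9.60% and 11.9%. MTHFD2 was among those lower in both (-0.55 ± 0.13 and -0.51 ± 0.13). None of these calls of CTPS1 and MTHFD2 lasted throughout, and the libraries left out or scaling used are given here. Without Mock control replicate 2, CTPS1 in Mock cells had an adjusted p of 0.0707. MTHFD2 in Mock cells had 0.0736 to 0.0909 without any one of the 4 Mock libraries. In HSF2oe cells CTPS1 had 0.0527 to 0.239 without any one of the HSF2oe or Mock TGF-β libraries, and MTHFD2 had 0.194 without HSF2oe control replicate 1 and 0.184 without HSF2oe TGF-β replicate 2. Scaled by library totals alone, the rises of CTPS1 (0.112 and 0.248) and MTHFD2 (0.197 and 0.0741) did not pass in either transfection. MTHFD2 under HSF2oe alone had 0.0504 to 0.177 without either Mock control library or HSF2oe control replicate 1. Under TGF-β it had 0.0588 without Mock TGF-β replicate 2, 0.145 without HSF2oe TGF-β replicate 1 and 0.0833 with library totals.

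Of 25 mitosis genes, 24 fell with TGF-β in Mock cells (median log2 change -0.63), against 6.50% of all genes tested, and 6 fell in HSF2oe cells (median -0.30), against 3.82%. With HSF2oe, 1 of the 25 was higher without TGF-β (median 0.18), a share no larger than the 4.88% of all genes tested, and 18 were higher with it (median 0.52), against 9.60%. A difference between the mitosis and the replication genes was not tested.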

How the data were processed

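RNA from 8 transfected HS578T cultures was sequenced after a stranded mRNA preparation, per the labels' protocols. The authors deposited gene counts for GENCODE 38 that featureCounts 2.0.1 made from read pairs with no strand setting, per the file headers, so antisense and overlapping genes can share or lose reads. They also deposited log2 CPM values for 13169 genes, all 50 described here among them, which differed by at most 0.0288 from log2 CPM recomputed here with TMM. STAR 2.7.9a, Subread 2.0.1, edgeR 3.34.1 and build GRCh38 are named in the submitters' processing notes. Groups follow the sample titles.

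Low-count genes were removed (filterByExpr, grouped), TMM factors computed and 4 group means fitted to the counts of all 8 libraries by edgeR's quasi-likelihood method (edgeR 4.0.16 under R 4.3.3) (4 residual degrees of freedom, 9.21 prior ones, common biological coefficient of variation 9.91%). A gene was called at a 2-sided p below 0.05 after adjustment by Benjamini and Hochberg's method, which covered all 16008 genes. A standard error is the size of the log2 change over the square root of F, and 95% intervals use the t distribution without adjustment. The code was tested on simulated data. CPM values are counts scaled by TMM-adjusted totals, and values per kb divide them by the count table's exonic length. Between 26 and 17386 counts stand behind a value. In no group did both replicates look like one library deposited under 2 names: their chi-square over its degrees of freedom was 12.5 to 26.8, where sampling alone gives about 1. The submitters call the replicates biological without naming separate cultures, so p-values measure the spread between these libraries.

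The 50 genes, the role groups and the other lists were chosen from general knowledge with earlier results of these data known. Full values are given for the 2 genes of each role group with the smallest p for TGF-β in Mock cells, the 3 with the smallest p for the interaction, the 2 with the smallest p in each other comparison and the 3 not called for TGF-β in Mock cells. ORC6 and POLD4 were added after their values were seen. Of the other lists, the called genes with the smallest p in either direction could be named, 3 per TGF-β comparison and 2 per HSF2oe comparison. SHMT1 was picked as lower with HSF2oe without TGF-β but is described by its fall with TGF-β in Mock cells. Promoter windows are RefSeq's, of build GRCh38.p14, and MCM5, GINS4, MCM4, POLD3, RPA2, DSCC1, RPA3 and FAM111B had no entry. Alternatives were library totals alone, RLE scaling, no filter on low counts, at least 1 CPM in every library, only the 4 libraries compared, a replicate term, each library left out in turn, DESeq2 1.42.0 and limma 3.58.1 on the deposited log2 CPM.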

Additional observations from a re-analysis of the deposited data

How the results depend on the processing

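No call of the 50 genes in any of the 4 comparisons between groups changed direction under an alternative, and counts moved as follows. The count of genes called lower with TGF-β in Mock cells ran from 36 to 47 over the fits that left out 1 library each (median log2 change -0.92 to -0.70). In HSF2oe cells it ran from 2 to 16 (median -0.37 to -0.28), against 14 in the fit of all libraries. The count called higher with HSF2oe ran from 1 to 15 without TGF-β (median 0.22 to 0.38), against 10, and from 39 to 45 with it (median 0.63 to 0.91). The interaction gave 0 calls in each of these fits (median difference 0.38 to 0.64). Scaled by library totals alone, the median of all genes tested moved by -0.27, -0.17, 0.09 and 0.19 in the 4 comparisons, and 608 of 4493 called genes were higher for TGF-β in Mock cells, against 1172 of 2212 with TMM. The 50 genes then gave 32 calls for TGF-β in HSF2oe cells and 24 for HSF2oe without TGF-β. Calls over all genes tested, in either direction, were 2045 and 2239 there, against 1323 and 1937 with TMM. For HSF2oe without TGF-β, no filter on low counts gave 16 calls, only the 4 libraries compared 17, and limma-trend 6. Over all genes, calls in either direction were 2441, 2276 and 1740 in these fits, against 1937 in the main one. For the interaction, no filter gave 14, among 83 genes called in all, and DESeq2 gave 7, among 23.

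Replicate numbers are shared by the groups, but the labels tie them to no culture or day, and with 2 numbers the pairing rests on the number alone. Deviations of same-numbered libraries correlated at 0.05 to 0.16. With the replicate block, calls of the 50 genes numbered 26 for TGF-β in HSF2oe cells, 28 for HSF2oe without TGF-β and 13 for the interaction. Calls over all genes tested, in either direction, rose as well, to 2366, 3614 and 78, from 1323, 1937 and 0 without the block. The cause of these shifts was not tested. Depth limits POLE2 most, at 26 to 136 counts a library.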
